A study of Mus musculus with 4 samples.

Results

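Regions with a phosphorylated CREB peak that carry an AP-1 site but no CREB core motif were described in a mouse pre-osteoblast line, MC3T3-E1. They were found by joining the 4 deposited peak lists wherever peaks shared at least 1 bp, and by searching the genome sequence within 100 bp of each region's centre. A region was kept when that window held an exact AP-1 site, TGAGTCA read on either strand (TGACTCA on the other), and no TGACG on either strand, the core of the cAMP response element (CRE). The rule kept 2990 of 28335 regions. Of the rest, 935 regions held both an AP-1 site and a CRE core, 7318 held a CRE core without an AP-1 site, and 17092 held neither. The rule used sequence and not the peak scores or the treatment. The regions it searched came from the 4 lists, however, and 1063 of the 2990 (35.6%) had a peak in a vehicle list, against 54.4% of all regions. The others entered through forskolin lists only. The core was sought in the window only, and 214 of the 2990 regions (7.16%) had one elsewhere between their ends.

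The libraries came from chromatin immunoprecipitation and sequencing with an antibody against CREB phosphorylated at serine 133. Cells had received 100 nM forskolin or the DMSO vehicle alone for 1 h, and each treatment had 2 libraries that the labels call biological replicates. No other treatment or genetic change is named for either group, and both groups are 1 established cell line. The series as a whole is about parathyroid hormone (PTH) in osteocytes, whereas these cells are pre-osteoblasts. Peak lists measure no expression, so the cell type label could not be checked against marker genes.

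CREB and the AP-1 proteins belong to the same bZIP class, in which paired basic leucine zippers grip the DNA. CREB dimers bind the CRE, a palindrome whose arms meet at a CG step. Fos and Jun dimers form AP-1 and bind a sequence 1 base shorter, the site that was searched here. Forskolin activates adenylyl cyclase and so raises cAMP, protein kinase A then phosphorylates CREB, and PTH acts on bone cells largely through that route. Fos and several of its relatives are textbook cAMP-induced genes, and AP-1 proteins are known regulators of osteoblast and osteoclast development. Which protein touched the DNA at each site was not measured.

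The lists held 14686 and 10180 peaks in vehicle replicates 1 and 2 and 25566 and 19371 in forskolin replicates 1 and 2. All counts of called regions therefore rest on lists of unequal length. Read totals were not in the lists. Low scores fell on whole steps in each list (99.9% or more of scores below 50), and the step was 0.232, 0.224, 0.239 and 0.688 in the order above. If 1 step stands for 1 sequenced tag, forskolin replicate 2 had 0.347 times the depth of forskolin replicate 1, and the vehicle libraries 1.03 and 1.06 times. The authors' scores are used below only as percentiles within a list, in which 0 is the lowest peak and 100 the highest.

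The sequences of 4 whole search windows show the AP-1 site in its surroundings. They were chosen as the Dusp1 region, the only one within 10 kb of a listed cAMP-induced gene that was called in both forskolin libraries and neither vehicle library, a region of the same kind inside Bre with a site at its centre, the region near H2-Oa, first among those called in all 4 libraries by the lowest of its 4 percentiles, and the region near Ier3 that was called in all 4. Each line gives the plus strand of mm9, 5′ to 3′, with AP-1 sites in capitals.
Dusp1 region, chr17:26651715-26651915: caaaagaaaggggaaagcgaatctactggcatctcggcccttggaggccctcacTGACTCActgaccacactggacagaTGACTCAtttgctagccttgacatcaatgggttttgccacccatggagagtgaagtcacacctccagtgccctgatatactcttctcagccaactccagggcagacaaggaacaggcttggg
Bre region, chr5:32338227-32338427: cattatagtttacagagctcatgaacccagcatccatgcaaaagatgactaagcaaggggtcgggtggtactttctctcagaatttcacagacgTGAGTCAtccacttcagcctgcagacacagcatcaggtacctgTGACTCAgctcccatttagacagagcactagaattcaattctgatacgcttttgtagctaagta
H2-Oa region, chr17:34216638-34216838: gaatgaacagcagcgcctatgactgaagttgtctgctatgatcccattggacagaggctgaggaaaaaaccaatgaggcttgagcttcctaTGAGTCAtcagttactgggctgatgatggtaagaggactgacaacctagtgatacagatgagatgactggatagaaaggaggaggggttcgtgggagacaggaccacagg
Ier3 region, chr17:35950223-35950423: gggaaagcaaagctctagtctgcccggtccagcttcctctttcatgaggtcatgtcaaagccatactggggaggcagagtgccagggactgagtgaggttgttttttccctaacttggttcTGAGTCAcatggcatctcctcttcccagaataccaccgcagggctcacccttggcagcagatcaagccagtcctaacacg
The Dusp1 and Bre windows hold 2 sites each, and the H2-Oa and Ier3 windows hold 1 each.

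Shorter stretches around the site nearest the centre show the bases next to it, which bear on the results for flanking bases. The Fgfr1 stretch has G before and C after the site, the Runx2 stretch has A after it, and the stretch near Nenf and Atf3 has T before it. The others belong to regions described by name further on.
Fgfr1, chr8:26576154-26576194: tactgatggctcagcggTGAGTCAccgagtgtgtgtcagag
Runx2, chr17:44791590-44791615: aaaccattgccacatgcTGAGTCAaa
Nenf and Atf3, chr1:193082392-193082432: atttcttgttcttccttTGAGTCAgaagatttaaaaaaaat
Jdp2, chr12:86960616-86960656: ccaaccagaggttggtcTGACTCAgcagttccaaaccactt
Trps1, chr15:50232998-50233038: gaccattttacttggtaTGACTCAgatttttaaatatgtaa
Maf, chr8:118307436-118307476: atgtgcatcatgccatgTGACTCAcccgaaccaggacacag
Incenp, chr19:9996047-9996087: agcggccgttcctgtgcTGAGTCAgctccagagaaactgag
Zfp703, chr8:27923801-27923841: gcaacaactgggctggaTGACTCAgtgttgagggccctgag
Bach2, chr4:32657192-32657232: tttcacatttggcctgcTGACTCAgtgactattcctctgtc
Tpst1, chr5:130592843-130592883: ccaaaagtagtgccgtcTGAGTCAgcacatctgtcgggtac
Fst, chr13:115252953-115252993: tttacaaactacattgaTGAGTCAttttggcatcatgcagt
These stretches also carry the site on the plus strand in 1 of 2 spellings, TGAGTCA or TGACTCA, which are the same site read from opposite strands.

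AP-1 regions without a CRE core made up a larger part of both forskolin lists than of either vehicle list. They accounted for 7.05% of the peaks of vehicle replicate 1 (95% Wilson interval 6.65 to 7.48) and 4.27% of those of vehicle replicate 2 (3.90 to 4.68). In forskolin replicate 1 the share was 10.8% (10.4 to 11.2), and in forskolin replicate 2 it was 9.02% (8.62 to 9.43). The 2 groups did not overlap, and the means were 5.66% ± 1.97 for vehicle and 9.91% ± 1.27 for forskolin (SD, n = 2 each), a ratio of 1.75. The two-sided exact permutation test over the 4 libraries gave p = 0.333, which is the smallest value that 2 against 2 libraries can give, so the design cannot pass a threshold of 0.05. The Wilson intervals cover counting error over peaks and not the spread between cultures.

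As numbers, 1036 and 435 of the 2990 regions had a peak in vehicle replicates 1 and 2, and 2764 and 1747 in forskolin replicates 1 and 2. The means were 735.5 ± 425 and 2255.5 ± 719 regions (SD, n = 2 each), 3.07 times as many under forskolin, with the same exact permutation p of 0.333. The 2990 regions came from these same lists, so the numbers describe the lists and are no independent test. Forskolin replicate 1 alone covered 92.4% of the regions. It also covered 96.6% of regions with both motifs, 94.6% of CRE core regions without an AP-1 site and 87.6% of regions with neither. The ratio of the numbers was 3.43, 1.67 and 1.71 for those classes in the same order. For AP-1 regions without a core it was 5.18 without vehicle replicate 1 and 2.18 without vehicle replicate 2. It was 2.34 without forskolin replicate 1, 3.67 without forskolin replicate 2 and 1.29 with equal lists.

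Regions with both an AP-1 site and a CRE core showed a ratio close to that of the AP-1 regions without a core, with means of 1.85% and 3.51% of the lists (ratio 1.89). Regions with a CRE core and no AP-1 site took 31.7% ± 4.75 of the vehicle lists and 28.9% ± 2.64 of the forskolin lists (SD, n = 2 each, exact permutation p = 0.667). Set against the CRE core regions of the same list, AP-1 regions without a core stood at 0.249 and 0.122 in the vehicle libraries and 0.399 and 0.293 in the forskolin libraries. It was higher in both forskolin libraries, with an exact permutation p of 0.333. AP-1 peaks lay mostly among the weak peaks, so this ratio also moves with list length. Over the 10180 highest peaks of each list, CRE core regions without an AP-1 site took 33.4% and 35.0% of the vehicle lists and 41.9% and 41.7% of the forskolin lists, the opposite direction to the full lists. Their forskolin to vehicle ratio was then 1.22, beside 1.29 for AP-1 regions without a core and 2.30 for regions with both motifs. The share of AP-1 regions relative to CRE core regions was thus not separated by treatment at 10180 peaks. Over shorter equal lists, with lengths chosen after seeing the data, the ratios of these 2 classes lay further apart. They were 2.73 for AP-1 regions without a core and 1.00 for CRE core regions at 1000 peaks, and 1.99 and 1.17 at 5000. Regions with both motifs stood at 3.12 and 3.01.

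**Figure D1:**
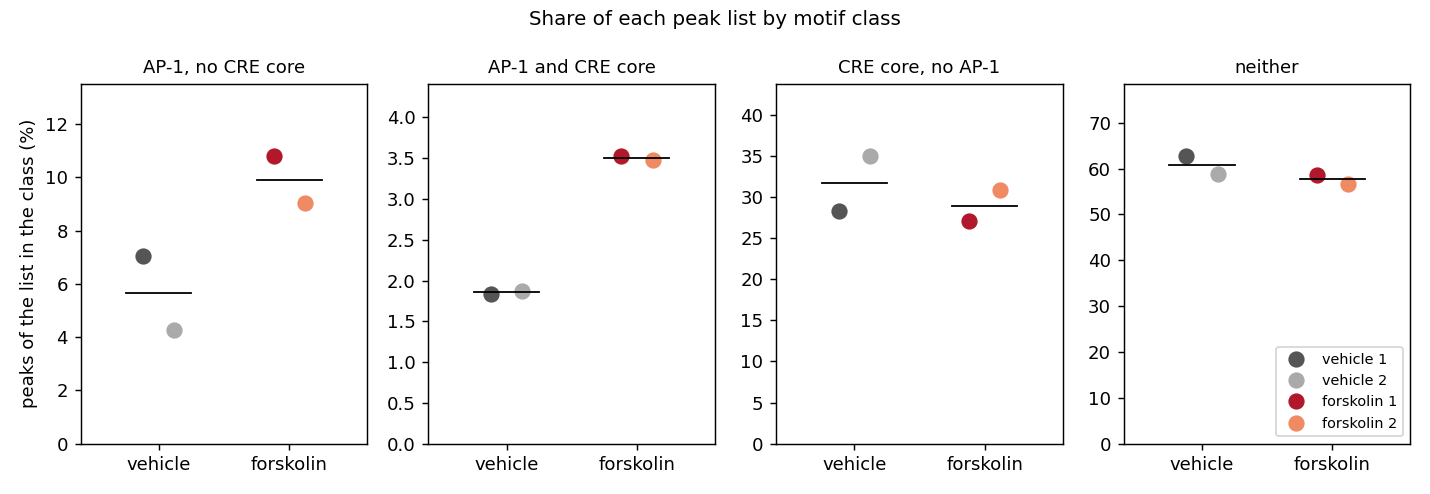
Percent of the peaks of each list (y axis, linear from 0, its range differing between panels) that lie in regions of each of the 4 motif classes. Points are single libraries and lines are group means. AP-1 regions without a CRE core take 7.05% and 4.27% of the vehicle lists and 10.8% and 9.02% of the forskolin lists, and the groups overlap for CRE core regions without an AP-1 site.

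Longer lists reach further down into weak peaks, so the shares were also counted among equally many of the strongest peaks of each list, with 1000, 2500 and 5000 chosen as list lengths after seeing the data. Among the 1000 highest-scoring peaks, 5 and 6 lay in AP-1 regions without a core in vehicle replicates 1 and 2, and 16 and 14 in forskolin replicates 1 and 2. Among the top 2500 the numbers were 23 and 23 against 67 and 55. Among the top 5000 they were 105 and 90 against 200 and 188. At 10180 peaks, the whole of the shortest list, they were 515 and 435 against 627 and 599. The forskolin libraries were higher at each of these 4 list lengths, and the ratio of the means was 2.73 at 1000 peaks and 1.29 at 10180. Each of the 4 comparisons gave an exact permutation p of 0.333, the smallest possible. These regions stayed a small part of the strongest peaks in either state, since 797 to 811 of the top 1000 peaks of each list lay in regions with a CRE core and no AP-1 site.

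**Figure D2:**
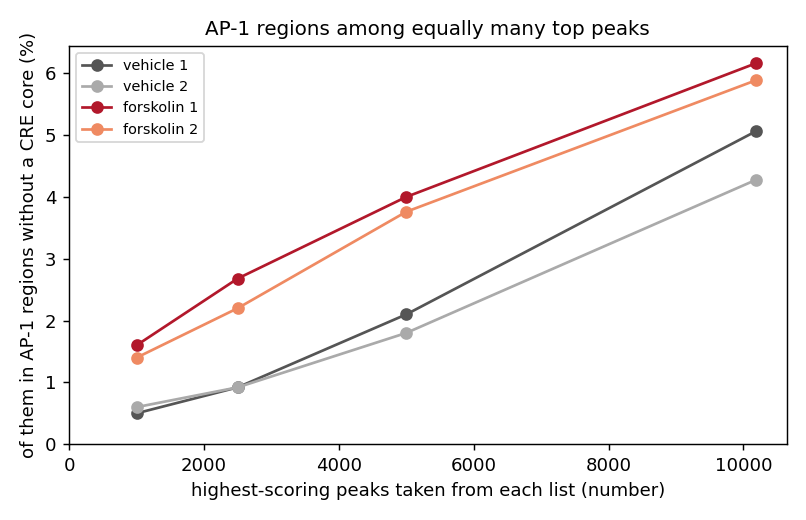
Percent of peaks in AP-1 regions without a CRE core (y axis, linear from 0) among equally many highest-scoring peaks of each list (x axis, number of peaks, linear), 1 line per library. Both forskolin lines lie above both vehicle lines at each of the 4 points, at 1.6% and 1.4% against 0.5% and 0.6% for 1000 peaks.

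Peaks at AP-1 sites were weak within every list. The median score percentile of the peaks in AP-1 regions without a core was 31.1 and 29.4 in vehicle replicates 1 and 2 and 37.2 and 36.4 in forskolin replicates 1 and 2. Peaks in CRE core regions without an AP-1 site had medians between 71.8 and 73.1 in the same lists. Regions with both motifs stood at 45.1 and 42.8 in vehicle and at 57.8 and 62.4 in forskolin libraries. Percentiles come from lists of different length, so a higher percentile in a forskolin list is no measure of a change.

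Few AP-1 regions reached the top of any list. In the highest 10% of scores there were 7 such peaks of 1036 in vehicle replicate 1, 6 of 435 in vehicle replicate 2, 67 of 2764 in forskolin replicate 1 and 34 of 1747 in forskolin replicate 2. In the lower 50% of the lists lay 76.9%, 77.9%, 65.6% and 67.3% of them. By deciles of score, AP-1 regions made up 14.9% of the weakest and 2.6% of the strongest decile of forskolin replicate 1. In vehicle replicate 1 those shares were 11.5% and 0.5%.

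**Figure D3:**
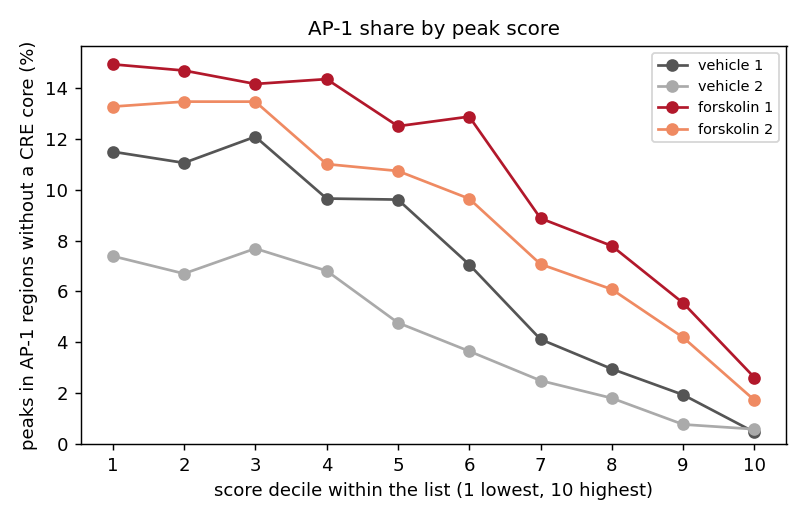
Percent of the peaks in each score decile (x axis, 1 lowest to 10 highest within the list) that lie in AP-1 regions without a CRE core (y axis, linear from 0), 1 line per library. In all 4 libraries the share is lower in the highest decile than in the lowest, from 14.9% to 2.6% in forskolin replicate 1 and from 7.4% to 0.6% in vehicle replicate 2.

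Among the 2990 AP-1 regions without a core, 749 (25.1%, 95% Wilson interval 23.5 to 26.6) had a peak in both forskolin libraries and neither vehicle library. Over all regions that forskolin-only pattern was found in 18.3%. Peaks in all 4 libraries were found at 381 AP-1 regions (12.7%) against 31.5% of all regions. The reverse pattern, both vehicle libraries and no forskolin library, was found at 5 regions (0.167%) against 0.441% of all regions. The remaining 1855 had another pattern, of which a peak in forskolin replicate 1 alone was the most frequent, at 1009 regions (33.7%, against 21.8% of all regions). A further 420 regions (14.0%, against 10.6% of all regions) were called in every library but vehicle replicate 2, the shortest list. Only 1 library called 40.7% of the AP-1 regions, against 30.2% of all regions.

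The forskolin-only share moved when some libraries were left out. It was 61.3% without forskolin replicate 2, 45.9% without forskolin replicate 1 and 39.5% without vehicle replicate 1, where all regions gave 42.4%, 30.6% and 29.6%. Without vehicle replicate 2 it was 25.6%, where all regions gave 19.9%. A pattern over fewer lists has fewer conditions to meet, and the cause of the shifts was not tested. In each case the AP-1 regions stood above all regions, as with the 4 libraries. With equally long lists the share was 15.1% against 10.0%. Of the 1565 AP-1 regions called in both forskolin libraries, 749 (47.9%) had no vehicle peak. The same share was 29.6% over all regions, 59.0% for regions with both motifs and 28.7% for CRE core regions without an AP-1 site. Of the 408 called in both vehicle libraries, 381 (93.4%) were also called in both forskolin libraries, against 94.5% over all regions.

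AP-1 regions and all regions differed in their forskolin-only share near genes, and hardly differed far from them. Distances are from the centre of the region to the nearest start site of a protein-coding gene. Beyond 10 kb, 540 of 2091 AP-1 regions (25.8%) were forskolin-only against 25% of all regions. In the same range CRE core regions without an AP-1 site stood at 37.1%, regions with both motifs at 42.6% and regions with neither at 18.9%. Within 1 kb, 46 of 251 AP-1 regions (18.3%, 14.0 to 23.6) were forskolin-only against 6.61% of all regions and 5.8% of CRE core regions without an AP-1 site, while regions with both motifs stood higher, at 29.2% of 106. Between 1 and 10 kb the AP-1 share was 25.2% and that of all regions 24.5%.

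Calls in all 4 libraries showed the reverse order near genes. Within 1 kb, 85 of 251 AP-1 regions (33.9%) were called in all 4 against 58.9% of all regions. Beyond 10 kb it was 230 of 2091 (95% Wilson interval of the share 9.73% to 12.4%) against 15.6%. Shares of regions have 1 value for the 4 libraries and regions are not replicates, so no test was made of these differences.

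**Figure D4:**
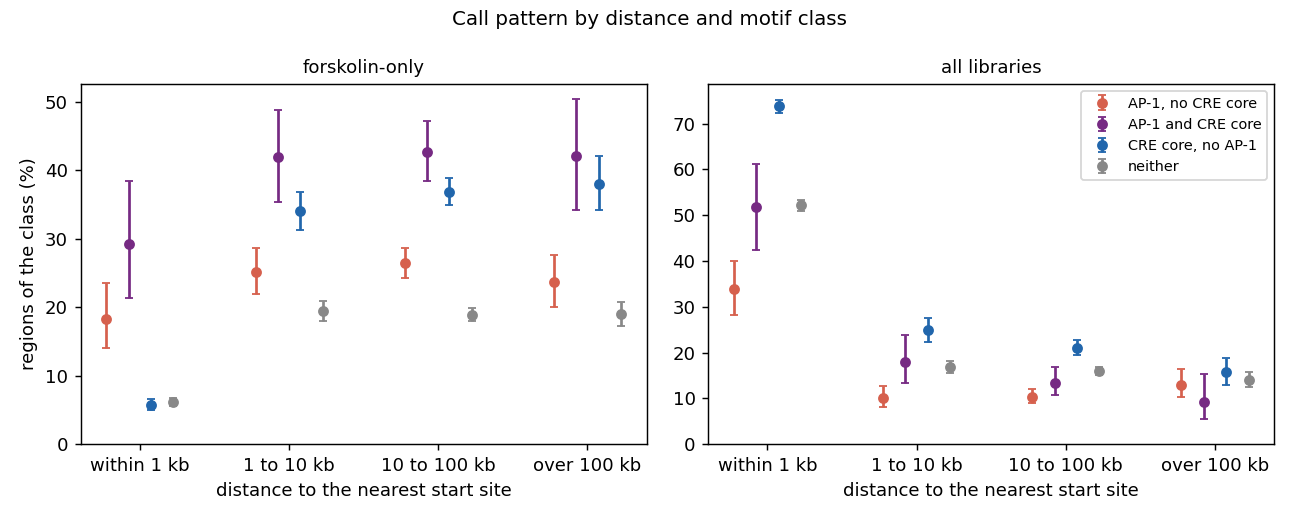
Percent of the regions of each motif class (y axes, linear from 0) called forskolin-only (left) or in all 4 libraries (right), by distance to the nearest protein-coding start site. Bars are 95% Wilson intervals over regions. Within 1 kb the AP-1 regions without a CRE core are forskolin-only in 18.3%, above the 5.8% of CRE core regions without an AP-1 site, and beyond 1 kb they lie below the CRE core regions in both panels.

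Most AP-1 regions without a core were far from promoters. Only 251 (8.39%, 7.45 to 9.44) lay within 1 kb of a protein-coding start site, against 35.8% of all regions. Beyond 10 kb lay 69.9% (68.3 to 71.6), against 47.0% of all regions, and the median distance was 23.7 kb against 7.90 kb. Their centres fell in introns in 46.1% of cases, between genes in 49.3% and in exons in 4.58%. They were spread on both sides of genes, with 49.4% upstream of the nearest start site. Regions with both an AP-1 site and a CRE core had a median distance of 21.5 kb, near that of the AP-1 regions without a core, and CRE core regions without an AP-1 site had one of 2.11 kb.

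The windows were poorer in G and C than those of all regions, with a median GC content of 48.3% against 52.2% and a median of 3 CG dinucleotides against 5. No CG at all was found in 258 windows (8.63%), against 4.05% of all windows. The rule keeps out TGACG, which holds a CG. Regions with neither motif, which also lack TGACG, had a median of 5 CG dinucleotides, and 5.20% of them had none. The part of the rule and of the distance to genes in these values was not tested. On the autosomes AP-1 regions made up 9.11% to 12.2% of the regions of a chromosome, and on the X chromosome 21 of 391 (5.37%). None of the 9 regions on Y belonged to them. Sequence copies were rare, as 2 of the 2990 windows matched another AP-1 region at 80% identity or more over at least 100 bp.

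Most windows held a single AP-1 site, with 1 site in 2679 regions (89.6%), 2 in 282, 3 in 26, 4 in 2 and 5 in 1, making 3334 sites. Regions with 2 or more sites were forskolin-only in 29.6% of 311 cases and regions with 1 site in 24.5% of 2679. Calls in all 4 libraries went the other way, at 9.32% and 13.1%. The window with 5 sites, between genes and nearest to Etnk1, holds a short repeat and was called in forskolin replicate 1 alone, low in that list. In windows with several sites, neighbouring sites were a median of 48 bp apart (344 pairs), and 27.0% of the pairs lay within 25 bp.

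The AP-1 sites gathered only loosely at the centres of their regions. A site lay within 25 bp of the centre in 33.7% of the AP-1 regions (32.0 to 35.4), and 31.1% of the 3334 sites were that close. An even spread over the searched window would place 26.2% of the sites there, and in windows of the same length 2 kb to either side 24.5% of 220 sites were. CRE cores were closer to the centre of the regions that have a CRE core and no AP-1 site, where 45.8% of the cores lay within 25 bp. In regions with both motifs, the AP-1 site was within 25 bp in 29.0% and the core in 49.3%. The spread of the AP-1 site was similar in every library's own peaks, with 28.7% to 33.9% of peaks having one within 25 bp of the peak centre. Regions within 1 kb of a start site had it in 37.8% of 251 cases (32.1 to 44.0).

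**Figure D5:**
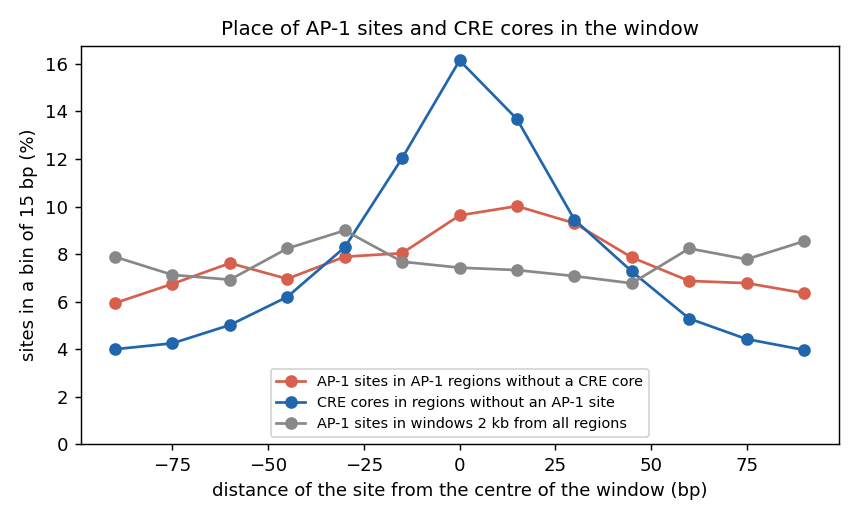
Place of motif matches in the window (x axis, distance of the match from the centre in bp) as the percent of all matches in each bin of 15 bp (y axis, linear from 0). CRE cores of regions without an AP-1 site rise to a sharp peak at the centre, AP-1 sites of regions without a core form a low broad rise, and AP-1 sites in windows 2 kb from all regions show none.

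Call patterns differed little with the place of the site. The forskolin-only share was 25.3% where the nearest site was within 25 bp of the centre, 24.2% at 26 to 75 bp and 26.9% beyond. The edge of the rule can be seen in the same way. Of 150 regions just inside it, with the nearest site more than 90 bp from the centre, 39 were forskolin-only and 15 were called in all libraries. Of 158 regions just outside it, with the nearest site in the next 10 bp and so not members, 35 (22.2%) were forskolin-only and 20 (12.7%) were called in all libraries.

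Few of the genome's AP-1 sites lay in a region. The genome held 419021 exact AP-1 sites, and 4350 of them (1.04%) lay in the window of any region, of which 3334 (0.796% of all sites) belonged to the AP-1 regions without a core. Near genes the latter share was higher, at 2.14% of the sites within 1 kb of a start site, and beyond 100 kb it was 0.379%. The full CRE, TGACGTCA, occurs at 14303 places, of which 1032 (7.22%) lay in the window of a region. Within 1 kb of a start site, 42.6% of full CREs did. Still, AP-1 sites were more frequent in region windows than nearby, at 13.9% of all regions against 3.46% of windows of the same length 2 kb away.

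The bases on either side of the AP-1 site differed between sites in regions and sites elsewhere. Read so that the site is TGAGTCA, GTGAGTCAC had the highest share in an AP-1 region without a core, 1.48% of its 26857 genomic copies (1.34 to 1.63). TTGAGTCAA had the lowest, 0.162% (0.116 to 0.227), with 34 such sites in all AP-1 regions. Sites with neither T before nor A after made up 83.9% of the sites in AP-1 regions, 62.5% of those in the genome and 66.4% of those in windows 2 kb from all regions. Their share in AP-1 regions was 1.07%, against 0.368% for sites with 1 of these bases and 0.162% for sites with both.

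This order of flanks was also found beyond 10 kb from start sites, at 0.977%, 0.334% and 0.123%. The 34 sites with both bases lay in 34 regions, of which 11 were forskolin-only (32.4%), beside 25.4% of regions with neither base. With 34 regions the call patterns of these flanks could not be told apart. The intervals of the 3 groups of sites did not overlap, and sites are not replicates of a condition.

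Other short motifs were searched on both strands in the same windows and set beside nearby windows, all regions and distal regions. The RUNX motif TGTGGT, bound by the osteoblast regulator Runx2 and its relatives, was in 29.3% of the AP-1 windows (27.7 to 31.0). It was in 15.5% of windows 2 kb from them, in 24.2% of all regions and in 33.4% of all regions beyond 10 kb. The TEAD motif GGAATG, read by the factors of the Hippo pathway, was in 17.3% against 10.7%, 15.4% and 19.9% in the same order. The E-box CAGCTG was in 15.4% against 8.86%, 13.6% and 14.9%. The GATA motif AGATAA was less frequent in the AP-1 windows than 2 kb away, 7.46% against 11.3%, with 5.23% in all regions and 7.19% beyond 10 kb. Among regions beyond 10 kb, RUNX was in 30.1% of the AP-1 windows (28.2 to 32.1) and 35.5% of those with neither motif (34.5 to 36.6). TEAD was in 17.7% (16.1 to 19.4) and 21.1% (20.2 to 22.0) of them. The E-box CAGCTG went the other way, at 15.4% and 14.9%, as did GATA, at 8.08% and 7.01%.

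Longer versions of the AP-1 site and near relatives of the CRE were counted too. The symmetric form ATGANTCAT, which overlaps the AP-1 site itself, was in 9.93% of the AP-1 windows and 1.76% of all regions. Most of all regions hold no AP-1 site, so that difference follows from the rule. In regions with both motifs the form was in 8.66%. GCTGAGTCA, the site extended toward the NF-E2 and Maf consensus and again overlapping the AP-1 site, was in 11.1%. The full palindrome of the Maf proteins was in 0 of 2990 windows. TGANGTCA, a CRE in which the base before the centre is free, was searched after seeing the data and was in 7.19% of the AP-1 windows, where the rule keeps out the true CRE. It was in 3.56% of windows 2 kb from them, 9.46% of all regions (true CREs included) and 6.52% of regions with neither motif. Beyond 10 kb it was in 6.79% of the AP-1 windows and 8.81% of those with neither motif. The Jdp2, Ier3 and Dusp1 windows hold such a sequence.

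Some of these motifs differed between AP-1 regions with different call patterns. The TEAD motif was in 13.8% of the forskolin-only regions (11.5 to 16.4) and 24.7% of those called in all 4 libraries (20.6 to 29.2). The GC box GGGCGG was in 4.27% (3.04 to 5.97) and 14.7% (11.5 to 18.6). RUNX went the other way with overlapping intervals, at 32.3% (29.1 to 35.7) and 27.3% (23.1 to 32.0). Regions called in all 4 libraries were also nearer to start sites (median 18.8 kb against 23.5 kb) and had a higher GC content (median 51.2% against 48.3%). The part of these values in the motif shares was not tested.

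The strongest forskolin-only AP-1 regions, ordered by the lower of their percentiles in the 2 forskolin lists, lay mostly between genes or in introns. Names are those of the nearest protein-coding gene, distances are negative upstream of its start site, and all positions are in mm9. The first lay at chr19:9995964-9996278, at -22098 bp from Incenp, which encodes a subunit of the chromosomal passenger complex. It had percentiles 93.9 in forskolin replicate 1 and 92.7 in forskolin replicate 2 and no peak in either vehicle list. The next, near Pcf11, a gene for an mRNA cleavage factor, had percentiles 95.8 and 92.5. A region 426040 bp downstream of the start of Trps1, the gene for a GATA-type repressor of skeletal development, lay at chr15:50232870-50233183 and had percentiles 91.1 and 90.3.

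Other regions of the first 12 lay near genes of varied function. The region of Col15a1, which encodes a collagen chain, was in an intron at 5839 bp from the start, chr4:47306810-47307186, with a percentile of 85.7 in forskolin replicate 1 and a slightly higher one in forskolin replicate 2. Slc35d1, which encodes a nucleotide sugar transporter needed for cartilage proteoglycans, had one in an intron at chr4:102872441-102872758, with percentiles 94.6 and 85.1. Zfp703, a zinc finger gene, had one between genes at -163951 bp, chr8:27923679-27924035, with percentiles 91.7 and 87.9. The bZIP gene Maf had one at -75841 bp, chr8:118307366-118307704, with percentiles 87.8 and 84.6. The intronic Bre region printed above, whose gene encodes a subunit of a BRCA1-containing complex, lay at chr5:32338097-32338556 with percentiles 96.0 and 86.4. The other regions of the 12 were nearest to Snx11, Anxa11, Zfp91 and Zbtb40. All 12 were absent from both vehicle lists, as the pattern requires.

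Near promoters, the 8 highest forskolin-only AP-1 regions within 1 kb of a start site belonged to Zfp91, Mrpl48, Rac1, Kcnn4, Atp8b2, Runx1, Gsto1 and Eif1ax. Runx1, which encodes a RUNX factor of blood and skeletal cells, had one at 497 bp in an exon, chr16:92696810-92697341, with percentiles 60.1 and 58.2. Kcnn4, the gene for a calcium-activated potassium channel, had one at -334 bp, chr7:25154775-25155121, with percentiles 60.7 and 67.5. These percentiles were lower than those of the first 12 regions, other than Zfp91, which stands in both sets.

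By the lowest of their 4 percentiles, the 8 highest AP-1 regions called in all 4 libraries lay near H2-Oa, Ric8b, Mtap9, Tysnd1, Snx29, Zyx, Nars and Rbm25. The H2-Oa region at chr17:34216582-34216893, between genes and -12547 bp from the start of this MHC class II-like gene, had percentiles 96.5 and 96.1 in vehicle replicates 1 and 2 and 97.3 and 96.9 in forskolin replicates 1 and 2. Ric8b, which encodes a chaperone of the stimulatory G protein that activates adenylyl cyclase, had one at -183 bp, chr10:84379981-84380374, with percentiles 96.8, 95.0, 97.5 and 98.7 in the same order. Zyx, the gene for the focal adhesion protein zyxin, had one at -139 bp with percentiles 86.1, 85.2, 92.8 and 91.6. The 5 vehicle-only regions were nearest to Tmem100, Fyb, Tpst1, A730013G03Rik and Rapgef1. They were weak, with percentiles from 9.76 to 33.3 in vehicle replicate 1 and from 3.52 to 36.9 in vehicle replicate 2.

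The genes that encode AP-1 subunits were counted beside all protein-coding genes. Of the 13 subunit genes annotated, 11 had a region of any kind within 10 kb and 1 of them (9.09%), Fosb, had an AP-1 region without a core there. Over all protein-coding genes with a region that share was 8.05% of 12264. The Fosb region, at -6927 bp between genes, chr7:19902170-19902472, was called in forskolin replicate 2 alone, at percentile 22.2. Within 100 kb, 9 of the 13 had at least 1 (Fos, Fosb, Fosl1, Fosl2, Jund, Atf3, Batf, Batf3 and Jdp2), against 26.1% of 22225 protein-coding genes. The 22225 include genes without any region nearby. A region of any kind lay within 10 kb of 12264 of them and of 11 of the 13, so the 100 kb shares are not particular to AP-1 regions. Forskolin-only regions were within 100 kb of 3 of the 13 genes, Atf3, Batf and Jdp2, against 8.25% of all genes, and Batf and Jdp2 share theirs.

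The shared region lay in an intron of Jdp2, the gene for a bZIP repressor that pairs with Jun, at chr12:86960436-86960809 and 19655 bp from its start. Its percentiles were 33.6 and 47.5 in forskolin replicates 1 and 2. The forskolin-only region at -75263 bp from Atf3, a stress-induced CREB and AP-1 relative, was nearest to Nenf and had a percentile of 44.1 in forskolin replicate 2 and a lower one in forskolin replicate 1. The region at -46830 bp from Fosl2, which encodes a Fos relative that acts in bone, had percentiles 2.43 in vehicle replicate 1 and 69.3 and 47.5 in forskolin replicates 1 and 2, and no peak in vehicle replicate 2. At Fosl1 and Fos the regions were called in forskolin replicate 1 alone, at percentiles 59.5 and 20.1. The highest percentile of any of these regions near subunit genes was the 69.3 of the Fosl2 region.

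The Maf, Bach and NF-E2 factors bind longer versions of the same site. Of the 13 listed, 10 had a region of any kind within 10 kb. Bach1 and Bach2 (20%, against 8.05% of all genes with a region) had an AP-1 region without a core there, and 0 had a forskolin-only one. Bach1, which encodes a repressor of haem oxygenase, had one in an intron at 1112 bp, chr16:87700171-87700550, with percentiles 2.43 in vehicle replicate 1, 72.0 in forskolin replicate 1 and 67.5 in forskolin replicate 2. Within 10 kb of Bach2, 1 of 3 such regions was called in all 4 libraries, chr4:32656886-32657412, with percentiles 57.3 and 29.4 in vehicle and 74.0 and 60.4 in forskolin libraries. Another at -58840 bp, chr4:32266770-32267108, was also called in all 4, with percentiles 83.8 and 73.3 in vehicle and 92.8 and 89.5 in forskolin libraries. Within 100 kb, 10 of the 13 genes had at least 1 (76.9%, against 26.1% of all protein-coding genes, with or without a region nearby). Forskolin-only ones were within 100 kb of 3 of the 13 (23.1%, against 8.25%).

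Textbook AP-1 target genes and kinases and phosphatases of the pathway were counted in the same way, beside the 8.05% of all genes. Of 16 pathway kinases and phosphatases with any region within 10 kb, Dusp1 alone (6.25%) had an AP-1 region without a core. Dusp1 encodes a phosphatase that switches off MAP kinases, and its forskolin-only region at chr17:26651658-26651971, -6351 bp from the start, had percentiles 82.6 and 64.3. Among 26 textbook AP-1 targets with any region, Timp1, Plaur, Hmox1 and Itga5 (15.4%) had one, and 0 of the 4 genes had a forskolin-only one. Plaur, the urokinase receptor gene, had it in an intron at 8108 bp, called in forskolin replicate 1 alone at percentile 67.6. Hmox1, the haem oxygenase gene, had it at -3913 bp, called in 3 libraries at percentiles 53.8 in vehicle replicate 1 and 43.7 and 5.31 in forskolin replicates 1 and 2.

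At osteoblast genes the 10 kb share was near that of all genes. Within 10 kb, 2 of 28 osteoblast lineage and matrix genes with any region had one, Omd and Lox (7.14%, against 8.05% of all genes), and within 100 kb 15 of 32 did (46.9%, against 26.1%). The 100 kb shares are over all annotated genes, with or without a region nearby, unlike the 10 kb shares, so the 2 cannot be set side by side. The 100 kb share was also 46.9% for textbook AP-1 targets, 44.8% for PTH-responsive genes, 37.5% for CREB and cAMP immediate targets and 27.8% for pathway kinases and phosphatases. Forskolin-only ones were within 100 kb of 7 of the 32 (21.9%), against 8.25% of all protein-coding genes. At Runx2, the master regulator of osteoblasts, the region lay in an intron at 80127 bp, chr17:44791354-44791676, with percentiles 53.0 and 31.9 in the forskolin libraries. At Alpl, which encodes the bone alkaline phosphatase, it lay at -57617 bp, nearer to Ece1, with percentiles 50.7 and 31.9. One region between Ibsp and Dmp1, genes for bone matrix phosphoproteins, was within 100 kb of both and also of Mepe, with percentiles 41.6 and 40.3. Dlx3 and Atf4 also had a forskolin-only region within 100 kb, with percentiles 39.4 and 36.4 at Dlx3 and 25.0 and 22.2 at Atf4. The remaining listed genes had no forskolin-only region within 100 kb. The Fgfr2 region was called in vehicle replicate 1 alone, at percentile 49.7. The regions of Postn, Omd and Lox were called in forskolin replicate 1 alone, with percentiles 43.7 at Postn and 32.3 and 11.4 within 10 kb of Omd and Lox. The Fgfr1 region had percentiles 9.76 in vehicle replicate 1 and 78.5 and 71.8 in forskolin replicates 1 and 2. Regions within 100 kb are counted for each gene in reach, so neighbouring genes share them.

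Of 37 CREB and cAMP immediate targets with any region within 10 kb, 6 (16.2%) had an AP-1 region without a core: Fosb, Cebpb, Ier3, Gadd45a, Dusp1 and Klf4. Ier3, an immediate early gene, had its region called in all 4 libraries, chr17:35950091-35950555 at -8306 bp, with percentiles 71.2 and 68.2 in vehicle and 89.2 and 85.1 in forskolin libraries. Klf4, which encodes a zinc finger factor, had one at -495 bp, chr4:55545678-55546005, with percentiles 56.2 in vehicle replicate 1 and 85.1 and 86.0 in forskolin replicates 1 and 2. The Cebpb region was called in vehicle replicate 1 alone, at percentile 4.79. The Gadd45a region was called in forskolin replicate 1 alone, at percentile 28.0. Among 21 PTH-responsive genes with any region, Fst, which encodes the activin antagonist follistatin, was the only one. Its forskolin-only region, at -3797 bp, had percentiles 39.4 and 1.53. Of 7 marker genes of adipocytes, chondrocytes, muscle and blood cells with any region, 0 had one within 10 kb, a number of genes too small to set against the 8.05% of all genes. Within 100 kb 4 of 24 did (16.7%, against 26.1%). They were Pparg, Des, Ckm and Acta1. Des and Acta1 had a region called in forskolin replicate 1 alone, at percentiles 21.8 and 11.4. Ckm had the Fosb region, called in forskolin replicate 2 alone. Pparg, the adipocyte regulator, had 4 such regions, of which the one at -27990 bp was forskolin-only with percentiles 71.0 and 44.1. It was the only gene of the 24 with a forskolin-only one within 100 kb (4.17%, against 8.25% of all genes). The Pparg region at -76941 bp had percentiles 48.2 in vehicle replicate 1 and 93.2 and 83.5 in forskolin replicates 1 and 2.

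The AP-1 regions without a core had 2244 different nearest genes, and 20 genes were nearest to 5 or more. Runx1 had 10, of its 26 regions of any kind, from -361 to 87.4 kb, and 2 were forskolin-only. Bach2 had 8 of its 23, with 0 forskolin-only and 2 called in all libraries. Myc, the proto-oncogene, had 7 of its 22 between 56.5 and 582 kb downstream, of which 3 were called in all libraries. Ank3 had 7 of its 21 and Cdk14 had 7 of its 18. Other AP-1 regions without a core lay within 5 kb of 4.11% of the AP-1 regions without a core (2.96% for all regions). Beyond 10 kb that share was 4.50%, beside 3.94% for regions with neither motif and 3.09% for CRE core regions without an AP-1 site. A region with a CRE core lay within 5 kb of 6.12% of the AP-1 regions without a core (7.94% for all regions).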

How the data were processed

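The deposited files are 1 peak list per library with a position and a score per peak. The score is the authors' own value, its scale is not stated, and it only ranked peaks within a list. Bowtie, HOMER and the build mm9 are named per the submitters' processing notes. Versions and peak thresholds were not given in the sources used here. An input library of another series was not used here. The peaks of a list share 1 width, from 301 to 311 bp.

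Peaks sharing 1 bp were merged. Sequence and gene models were NCBIM37 (mm9) and GENCODE M1, which every region fitted, and distances run to the nearest start of 22225 protein-coding genes. All 20 motifs were searched on both strands in windows of 201 bp. Flanking windows at 2 kb, free of any region, served for comparison. Libraries were compared with two-sided exact permutation tests, and shares have 95% Wilson intervals, which cover counting error only. Region classes were not tested, because regions are not replicates. The replicates' origin beyond the labels' word is not known, so p-values measure the spread between these libraries.

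The members, motifs and 8 gene lists were chosen with earlier results of these data known. The named regions were the highest by percentile among regions called in all libraries (8), forskolin-only (12), vehicle-only (5) and forskolin-only within 1 kb (8), up to 6 per gene list within 10 kb (and within 100 kb for AP-1 subunits and osteoblast genes), and the 5 with most sites. Fos, Jund, Ibsp, Mepe, Dlx3, Atf4, Ank3, Cdk14, Myc, Pparg, Des, Ckm and Acta1 and the second Bach2 region were named beside counts, after their values were seen. Alternatives changed the merging, windows, centre, score threshold, gene set, distance, pairing and libraries. On simulated lists, with the peaks of each region at 1 shared position, 4000 of 4000 regions were recovered in their class and pattern. Offset or neighbouring peaks were not simulated, so this checked the rules and not the merging of real lists. Software was BLAST 2.17.0 for copies, matplotlib 3.10.9, numpy 2.4.6 and scipy 1.17.1 under Python 3.11.15.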

Additional observations from a re-analysis of the deposited data

How the results depend on the processing

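The forskolin minus vehicle difference in the share of the lists stayed above 0 under each alternative run, from 1.33 percentage points with equal lists to 4.85 with a window of 150 bp, and from 2.88 to 5.63 when 1 library was left out. Over the 1000, 2500 and 5000 highest peaks of each list, chosen after seeing the data, it was 0.95, 1.52 and 1.93 points. The difference in the number of AP-1 regions called stayed above 0 too, from 135.5 with equal lists to 1779 with a window of 150 bp, and from 959 to 1999 when 1 library was left out. In a replicate block, which pairs libraries by number, the mean differences were again 4.25 points (3.76 and 4.75 within numbers) and 1520 regions (1728 and 1312 within numbers) (exact sign-flip permutation p = 0.5, the smallest possible). The labels give the shared numbers no common batch, and the pairing check correlated at 0.188 over 8930 regions. With 2 pairs this does not show pairing.

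The forskolin-only share, 25.1% as reported, was 23.1% when joined peaks had to overlap by at least 50%, 28.8% in the top 50% of each list and 15.1% with equal lists (all regions 17.2%, 20.6% and 10.0%). It ranged from 25.6% to 61.3% when 1 library was left out. The share beyond 10 kb, 69.9%, was 66.1% in the top 50% of each list, 65.9% with equal lists, 63.2% counted from start sites of all annotated genes and 81.2% beyond 5 kb, and 67.2% to 70.2% with 1 library left out. The share with a site within 25 bp, 33.7%, was 58.7% with a window of 50 bp and 26.9% with a window of 150 bp, which follows from the width searched, and 32.0% to 34.1% with 1 library left out. Of the 63 named regions, 34 kept their class and pattern in the top 50% of each list, the fewest of any alternative, and 62 with the overlap of at least 50%. Apart from the window widths, the causes of these shifts were not tested. Depth is not known, so a missing peak is not absence of the protein, and a region called in 1 library has no replicate check.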
